A study of Caenorhabditis elegans with 4 samples.

Results

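The aminoacyl-tRNA synthetase genes of Caenorhabditis elegans were taken as the protein-coding genes of the Ensembl annotation of assembly WBcel235 whose name is 1 amino acid letter followed by ars- and a digit. The rule found 32 genes of the 19973 protein-coding genes on the 6 nuclear chromosomes. By the digit, 11 are named as mitochondrial (digit 2), 20 as cytosolic (digit 1), and fars-3 has neither digit. The data are chromatin immunoprecipitation sequencing (ChIP-seq) of whole hermaphrodites at the late embryonic stage. All libraries form 1 group of strain OP372, with the genotype unc-119(tm4063) III; wgIs372, in which a transgene stably expresses K09A11.1 with a GFP and FLAG tag at its C terminus. An antibody to GFP was used. RefSeq lists the product of K09A11.1 as containing a BED-type zinc finger. Each of the 2 biological replicates gave 2 technical libraries, 4 in all, so no comparison between conditions was possible, and a signal shows recovery of the tagged protein from a transgene, in all embryonic cells together.

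Aminoacyl-tRNA synthetases attach each amino acid to its transfer RNA, the step that fixes the genetic code before the ribosome is reached. Animals use separate sets of enzymes in the cytosol and in mitochondria, or 1 gene that serves both places, and all of these genes are nuclear. Mitochondrial glutamyl-tRNA synthetase is often nondiscriminating: it puts glutamate on the mitochondrial tRNAs for glutamate and for glutamine, and an amidotransferase then turns the second product into glutaminyl-tRNA.

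The values are the authors' signal, 1 number for each listed region, with higher values for stronger recovery over the shared control. The thresholded list holds 689 peaks, kept by the irreproducible discovery rate (a measure of how well ranks recur between replicates), of which 663 are nuclear. Their signal lies between 30.4 and 452. The pooled list and the list of each replicate hold 30000 ranked regions each, background included, and begin at signals of 7.02 (pooled), 5.14 (replicate 1) and 2.73 (replicate 2). The depth of the libraries is unknown because the lists hold no read counts. A gene's value in a list is the highest signal with a summit between 1000 bp upstream and 200 bp downstream of an annotated 5' end, and a gene with none is unlisted, which means below the end of that list and not zero.

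The ears-2 sequence is shown because it holds the 1 synthetase site in the thresholded list. The other 3 are examples, not the full set, of the intergenic sites of weak regions in the pooled list. The first is the whole 91 bp between ears-2 and its divergent neighbour uncp-18 (chrIV:390469-390559). The others are 101 bp windows at the summits of iars-1 (chrIV:10367966-10368066), mars-1 (chrIV:11635813-11635913) and aars-1 (chrII:11464553-11464653). All are read 5' to 3' on the strand of the synthetase gene (minus for ears-2, mars-1 and aars-1, plus for iars-1) from the RefSeq sequence of WBcel235, the assembly also named ce11. Capitals mark the word CCGCGC on either strand (its reverse complement is GCGCGG), where overlapping copies run together.
ears-2: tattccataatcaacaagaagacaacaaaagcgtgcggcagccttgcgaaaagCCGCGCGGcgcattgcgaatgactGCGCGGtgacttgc
iars-1: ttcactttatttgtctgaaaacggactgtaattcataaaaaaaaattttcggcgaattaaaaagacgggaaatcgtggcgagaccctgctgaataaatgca
mars-1: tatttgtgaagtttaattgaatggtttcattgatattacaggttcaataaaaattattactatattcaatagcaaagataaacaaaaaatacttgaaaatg
aars-1: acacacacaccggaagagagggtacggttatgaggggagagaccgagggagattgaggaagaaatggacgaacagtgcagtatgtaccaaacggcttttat

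Of the 32 synthetase genes, ears-2 alone carried a promoter peak in the thresholded list. That is 3.12% of the members, near the 2.49% of all protein-coding genes with such a peak. ears-2, listed in RefSeq as the nondiscriminating mitochondrial glutamyl-tRNA synthetase, had a signal of 162 in the pooled list, 109.9 in the list of replicate 1 and 56.9 in that of replicate 2. Its region was the fifth strongest of the nuclear regions in the pooled list (rank 5 of 29974), and it stood at rank 5 in replicate 1 and at rank 4 in replicate 2. Counting mitochondrial regions, its ranks were 17, 22 and 15 of 30000. The replicates gave the site nearly the same place in their order, at unequal signal values. Recurring ranks are what keeps a peak in the thresholded list, so this is no separate result.

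The ears-2 peak covered chromosome IV 390382 to 390579 on ce11, with its summit at 390492. It was the only region of the pooled list in the ears-2 promoter window. The pooled summit lay 24 bp upstream of the annotated 5' end of ears-2, and the summits of the replicates lay 15 bp (replicate 1) and 52 bp (replicate 2) upstream of it. The summit also lay 68 bp upstream of the 5' end of uncp-18, which RefSeq lists as syntaxin-binding protein 1, a kind of protein that acts in membrane fusion. Both 5' ends fall inside the peak, so the peak cannot be given to ears-2 alone.

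No other synthetase gene reached the thresholded list. The next member was gars-1, the glycyl-tRNA synthetase gene, with a pooled signal of 20.0 at rank 1573, so that the ears-2 signal was 8.08 times as high as the next. The ratio of ears-2 to the next member was 7.27 in replicate 1, where tars-1 was second, and 3.72 in replicate 2, where aars-1 was second. The −log10 q-value of the authors was 3.0 at ears-2, equal to the highest in the pooled list. At the sites of the other members it lay between 0.02 and 0.78, against a lowest value of 2.39 in the thresholded list.

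**Figure D1:**
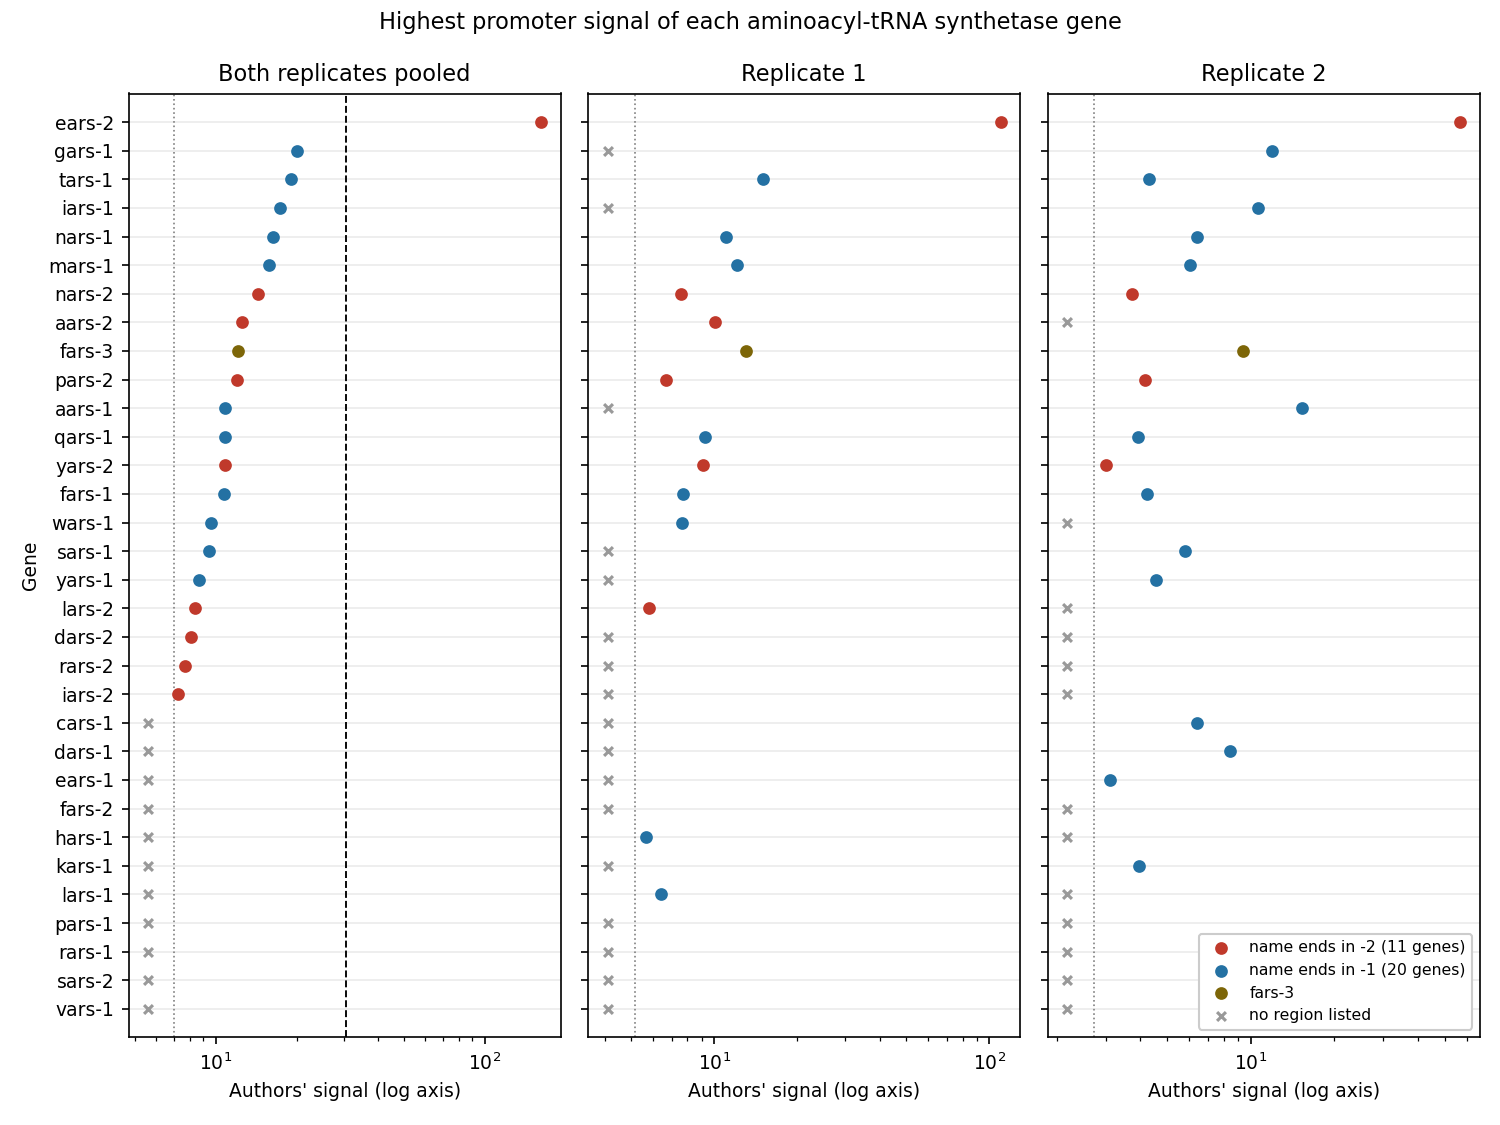
The highest promoter signal of each of the 32 synthetase genes (points, log axis) in the pooled list and in the list of each replicate, coloured by the digit in the name. Crosses mark genes with no listed region, the dotted line the lowest signal of a list and the dashed line the lowest signal of the thresholded list, 30.4. Only ears-2 lies right of the dashed line, and it is the highest member in all 3 panels.

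A promoter region of any strength in the pooled list was found for 21 of the 32 members (65.6%), against 42.2% of all protein-coding genes. For replicate 1 it was 15 members (46.9%), against 41.4% of all genes, and for replicate 2 it was 19 members (59.4%), against 42.4% of all genes. The median signal of the 21 listed members was 10.8, and that of the 8420 listed genes was 11.0. In replicate 1 the median was 9.1 over listed members and 8.28 over all listed genes, and in replicate 2 it was 5.79 over listed members and 4.83 over all listed genes. Among the 5000 regions of highest signal were sites of 7 of the 32 members, against 2558 of the 19973 protein-coding genes (12.8%). These were ears-2, gars-1, tars-1, iars-1, nars-1, mars-1 and nars-2. These shares are descriptions, and the list goes down to regions near background.

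Among the weak regions, the 4 highest were at genes named as cytosolic. gars-1 had a pooled signal of 20.0, no region in replicate 1 and 11.9 in replicate 2, with the summit on chromosome III at 5163206, in an intron of gars-1 itself. tars-1, the threonyl-tRNA synthetase gene, had 19.0 pooled, 15.1 in replicate 1 and 4.3 in replicate 2. Its summit, on chromosome II at 11694690, lay inside introns of tars-1 and of the overlapping gene kel-1, which encodes a BTB domain protein. iars-1, the cytoplasmic isoleucyl-tRNA synthetase gene, had 17.3 pooled, no region in replicate 1 and 10.6 in replicate 2, and its summit lay 585 bp upstream, 226 bp upstream of the divergent gene pges-2. nars-1, the cytoplasmic asparaginyl-tRNA synthetase gene, had 16.3 pooled, 11.0 in replicate 1 and 6.4 in replicate 2, and shared its region with nduf-6, a subunit of respiratory complex I. In none of these genes did both replicates give a value near that of ears-2.

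The remaining members with a pooled region lay lower. mars-1, for methionine, had 15.8 pooled and 12.1 in replicate 1, at a site shared with F58B3.6, and 6.05 in replicate 2 at another summit. fars-3, the phenylalanyl-tRNA synthetase beta subunit gene, had 12.1 pooled, 13.0 in replicate 1 and 9.36 in replicate 2. qars-1, for glutamine, had 10.8 pooled, 9.25 in replicate 1 and 3.91 in replicate 2. All 3 thus had a promoter region in both replicate lists, below the thresholded list, but not at 1 site. None had a replicate 2 summit within 100 bp of the pooled summit. The 13.0 of fars-3 in replicate 1 was also at another summit, 337 bp upstream, against 111 bp in the pooled list. fars-1 had 10.7 pooled and 7.68 in replicate 1, at a site shared with rbm-5, which encodes an RNA-binding protein. Its 4.24 in replicate 2 was at another summit, 534 bp upstream, against 816 bp in the pooled list. wars-1, for tryptophan, had 9.64 pooled and 7.67 in replicate 1 and was unlisted in replicate 2. sars-1 had 9.45 pooled, at a site shared with the ADP/ATP translocase gene C47E12.2, and was unlisted in replicate 1. Its 5.79 in replicate 2 was at another summit, 94 bp downstream.

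Both replicate lists held a summit within 100 bp of the pooled summit for 4 members, ears-2, nars-1, pars-2 and tars-1. That is 12.5% of the 32 members, against 9.73% of all genes, and 19.0% of the members with a pooled region, against 23.1% of all genes with one. pars-2, named in RefSeq as a putative mitochondrial prolyl-tRNA synthetase, had 6.44 in replicate 1 and 4.17 in replicate 2 at this site, with a pooled signal of 12.0. At 10 members the site was in 1 replicate list and at 7 in neither. With a distance of 50 bp the count in both lists was 2, and with 200 bp it was 9. A wider distance can only add sites. Shares of all genes are given only for sites in both lists at 100 bp.

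Of the members listed in replicate 2 and not in replicate 1, aars-1 had the highest signal. aars-1 had a signal of 15.3 in replicate 2, at rank 447 of its list, with the summit 96 bp upstream and a −log10 q-value of 2.71, equal to the highest of that list. It was unlisted in replicate 1 and had 10.8, at rank 11282, in the pooled list. The value of 2.71 was shared with ears-2. Also unlisted in replicate 1 were gars-1, iars-1 and dars-1, with −log10 q-values in replicate 2 of 2.52, 2.39 and 2.02. When the 663 highest nuclear regions of each replicate were taken, ears-2 was the 1 member in replicate 1, where 2.33% of all genes had one, and ears-2 and aars-1 were the members in replicate 2, where 2.62% had one.

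Some members were listed in a replicate and not in the pooled list. dars-1, the cytoplasmic aspartyl-tRNA synthetase gene, had 8.44 in replicate 2 and was unlisted in replicate 1. cars-1, for cysteine, had 6.43 in replicate 2, kars-1, for lysine, had 3.97, and ears-1, the other glutamyl-tRNA synthetase gene, had 3.12. hars-1, for histidine, had 5.65 and lars-1, for leucine, had 6.4, both in replicate 1. These 6 genes each appeared in 1 replicate only. The genes fars-2, pars-1, rars-1, sars-2 and vars-1 had no promoter region in any list. With 42.2% of all protein-coding genes in the pooled list, absence is no result about these 5 genes. Conversely dars-2, rars-2 and iars-2, with pooled signals of 8.12, 7.66 and 7.26, had no promoter region in either replicate list.

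By the digit in the name, 9 of 11 members named as mitochondrial and 11 of 20 named as cytosolic had a pooled promoter region, 81.8% and 55.0%. In replicate 1 the counts were 6 of 11 and 8 of 20, and in replicate 2 they were 4 of 11 and 14 of 20. The higher share thus lay with the mitochondrial names in the pooled list and in replicate 1, and with the cytosolic names in replicate 2. Over all protein-coding genes the shares were 42.2% (pooled), 41.4% (replicate 1) and 42.4% (replicate 2). The median signal of listed genes was 10.8 in both classes. Without ears-2 the strongest mitochondrial name was nars-2 with 14.4, below the 20.0 of gars-1 among the cytosolic names, and no test was made between the classes. No synthetase of the mitochondrial set apart from ears-2 was in the thresholded list.

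The digit did not always match the compartment in the RefSeq product name. RefSeq lists aars-1 as the mitochondrial and aars-2 as the cytoplasmic alanyl-tRNA synthetase, the reverse of the digits. It names a mitochondrial product for 4 members (aars-1, ears-2, pars-2 and rars-2), a cytoplasmic product for 10, and gives no compartment for 18. By these product names, and against 42.2% of all protein-coding genes, 4 of 4 mitochondrial and 7 of 10 cytoplasmic members had a pooled region. Their listed signals ran between 7.66 and 162 for mitochondrial products and between 9.45 and 19.0 for cytoplasmic products.

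Within amino acids that have both enzymes by name, neither class was always the higher. For glutamate ears-2 had 162 and ears-1 was unlisted. The gene named as mitochondrial was also the listed one of its pair at dars-2 with 8.12, lars-2 with 8.4, pars-2 with 12.0 and rars-2 with 7.66. The gene named as cytosolic was the listed one at fars-1 with 10.7 and sars-1 with 9.45. Where both were listed, aars-2 had 12.5 and aars-1 10.8, yars-2 had 10.8 and yars-1 8.64, iars-2 had 7.26 and iars-1 17.3, and nars-2 had 14.4 and nars-1 16.3. Apart from ears-2, all of these values lie below the thresholded list.

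Among the pooled summits, that of ears-2 lay closest to a 5' end of its gene. In the list of replicate 2 its summit was 52 bp away, and those of fars-3, cars-1, ears-1 and nars-2 were closer, at 5, 38, 40 and 47 bp. Among the 21 pooled sites, 19 lay upstream of the nearest 5' end of their gene, with a median of -260 bp, against -307 bp for all genes with a region. Within 150 bp of a 5' end lay 4 of the 21 sites (19.0%), ears-2, fars-3, aars-1 and iars-2, against 25.8% of sites over all genes. The window reaches further upstream than downstream, which favours upstream sites. The exceptions were nars-2, 159 bp downstream, and gars-1, whose site is 421 bp downstream of its outer 5' end and counts through a second annotated 5' end. The tars-1, qars-1 and lars-2 sites also lay inside their own genes. They count as upstream because the nearest annotated 5' end is an inner one.

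**Figure D2:**
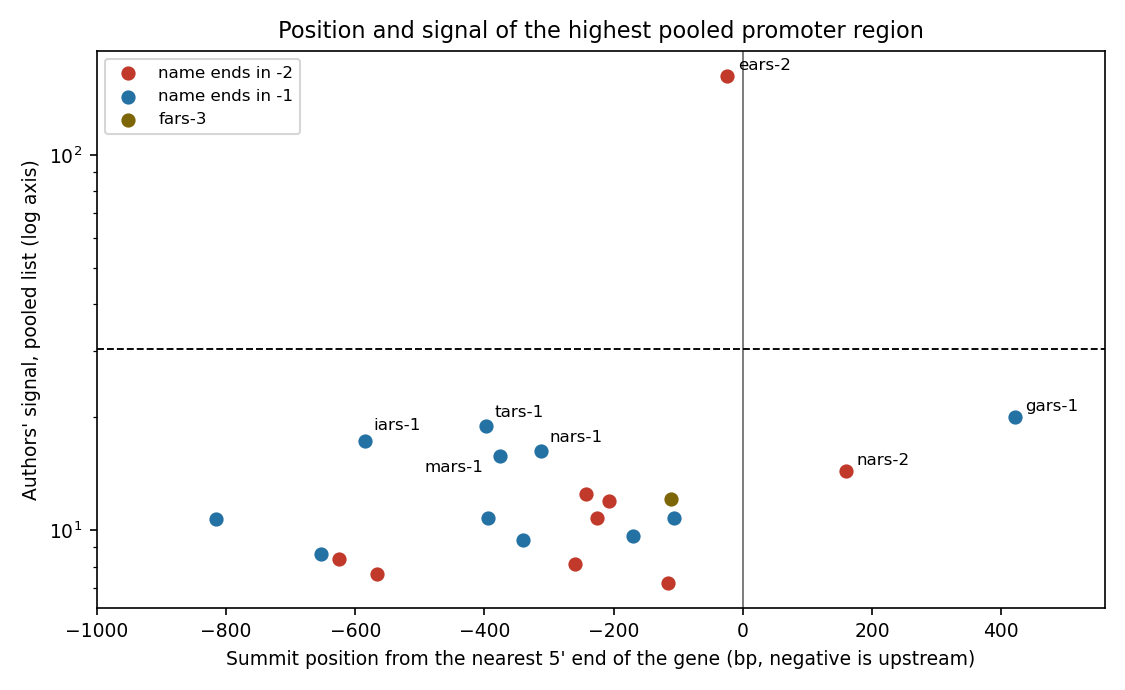
Position of the summit from the nearest annotated 5' end of the gene (bp) against the pooled signal (log axis) for the 21 members with a pooled promoter region. The dashed line is the lowest signal of the thresholded list, 30.4. The ears-2 site lies 24 bp upstream at a signal of 162, and the other sites lie at or below 20.0 across the window.

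Many of the weak sites lay inside genes. Of the 21 sites, 9 were intergenic, 5 in introns and 7 in exons, while over all genes with a pooled region 60.7% were intergenic, 19.0% in introns and 20.3% in exons. The dars-2 and rars-2 summits lay in exons of the genes upstream on the same strand, F10C2.5 and C29H12.2. The yars-2 summit lay in an exon of miro-1 and the yars-1 summit in an intron of Y105E8A.20. The promoter windows of another protein-coding gene held 8 of the 21 sites. No share over all genes is given for this, so whether 8 is usual is not known. None of the 21 lay within 200 bp of an annotated tRNA, snoRNA, snRNA or microRNA gene, and the nearest was 971 bp from one, at qars-1. Over all genes with a region, 1.97% of sites lay that close.

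The ears-2 site was also the richest in G and C among the members. Its 101 bp summit window had 60.4% G and C, a share reached by 0.604% of the 29974 nuclear pooled regions. The other 20 sites had between 19.8% and 53.5%, with a median of 34.7%. The median was 33.7% over all nuclear pooled regions and 49.5% over the 663 nuclear thresholded peaks. After ears-2 came rars-2 with 53.5% and aars-1 with 49.5%, whose pooled signals of 7.66 and 10.8 were low. Reads at ears-2 can be placed uniquely as far as 32-base words show, since none of its window recurred elsewhere in the nuclear genome. At the other members only the qars-1 window held such words, 5.71% of them.

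**Figure D3:**
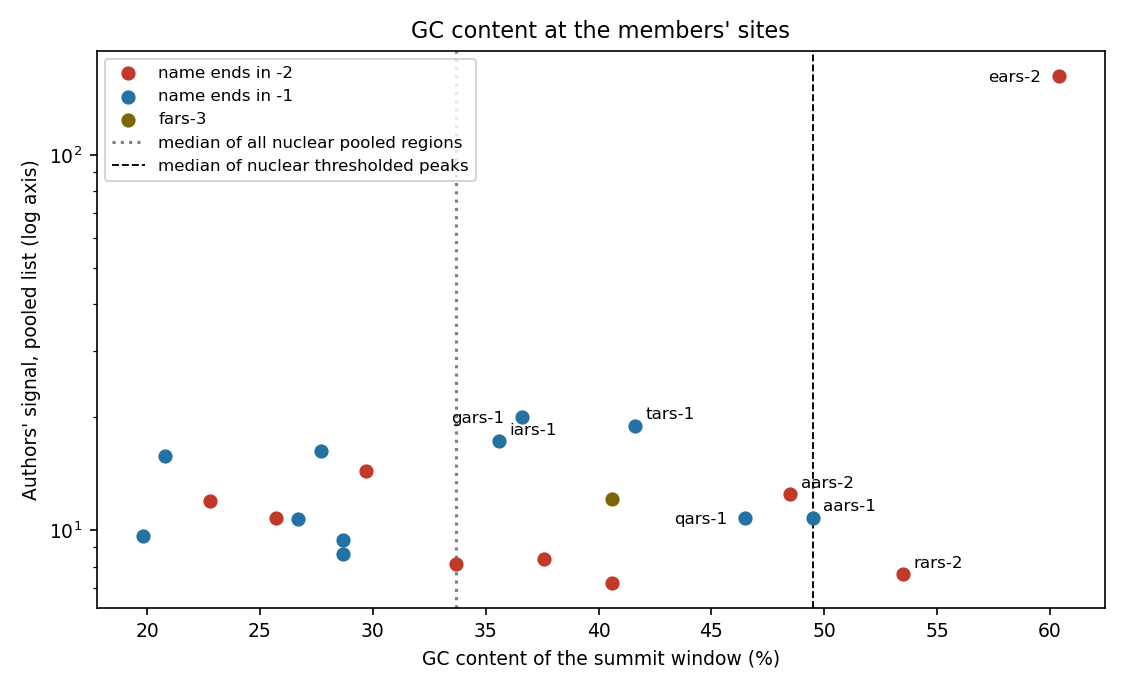
GC content of the 101 bp summit window (%) against the pooled signal (log axis) for the 21 members with a pooled promoter region. The dotted and dashed lines are the medians over nuclear pooled regions, 33.7%, and nuclear thresholded peaks, 49.5%. The ears-2 site, at 60.4%, is the highest on both axes, and rars-2 and aars-1, at 53.5% and 49.5%, have signals of 7.66 and 10.8.

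The 91 bp between ears-2 and uncp-18 repeat short GC-rich words. Counted on both strands, the word CCGCGC occurred 3 times in it, and 5 other words of 6 bases occurred 2 times each. The words were picked for recurring in this sequence, so their presence here is no result. CCGCGC was present in 9.05% of the 101 bp summit windows of thresholded peaks, against 1.61% of those of all pooled regions, and at none of the other 20 member sites. For CGCGGC, which can overlap it, these shares were 7.99% and 1.68%, again with no other member. For TCGCAA they were 10.1% and 3.84%, and of the other members only the qars-1 site held it. TGCGAA, which can overlap the reverse complement of the last, was in 8.9% and 4.33%, and at the iars-2 and qars-1 sites. CAACAA was about as frequent in thresholded windows (8.9%) as in all pooled windows (8.72%), and was also at gars-1. AAAAGC was less frequent in thresholded windows, 6.33% against 10.2%, and was also at aars-1 and qars-1. The thresholded windows were richer in G and C than all nuclear pooled windows, with medians of 49.5% and 33.7%. The word shares were not adjusted for this, and its part in their differences was not tested.

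Other genes of tRNA biology were described with the same windows. Over all protein-coding genes, 2.49% had a thresholded peak and 42.2% a pooled region, so none among a few genes is no result about them. None of the 14 genes of tRNA maturation and modification had a thresholded peak, and 10 had a pooled region with signals between 8.46 and 12.9. Among the highest of these were alkb-8, a tRNA wobble uridine methyltransferase, with 12.9, nsun-2, a tRNA cytosine methyltransferase, with 11.6, and tut-1, which acts in tRNA thiolation, with 11.0. Of the 4 genes that deliver charged tRNA to the ribosome, eef-1A.1 and eef-1A.2, both for cytosolic elongation factor 1-alpha, had thresholded peaks. eef-1A.1 had 54.5 pooled, 27.3 in replicate 1 and 27.0 in replicate 2, and eef-1A.2 had 42.1, 15.2 and 26.7 in the same lists. Given to the nearest 5' end alone, the peak stayed with eef-1A.2 and not with eef-1A.1. The mitochondrial counterpart tufm-1 had 12.1 in the pooled list, and tsfm-1 was unlisted there. None of the 3 genes that sense uncharged tRNA had a thresholded peak: gcn-1, a partner of the kinase, had 17.4 pooled, gcn-2, the kinase of initiation factor 2, had 10.3 and atf-4, the transcription factor downstream of it, had 7.09.

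The partners of ears-2 in making mitochondrial glutaminyl-tRNA were looked at after its value was seen. The amidotransferase genes had pooled signals of 14.1 at Y41D4A.6 (subunit A), 9.26 at C39B5.6 (subunit B) and 10.9 at Y66D12A.7 (subunit C), and none was in the thresholded list. RefSeq product names gave 4 synthetase genes outside the name rule, also chosen then, and none had a thresholded peak. With 2.49% of all protein-coding genes in that list, none among so few is no result about them. glp-4, a valyl-tRNA synthetase gene, had 18.4 pooled, and Y105E8A.20, listed as mitochondrial methionyl-tRNA synthetase, had 8.09. prx-10, whose products include a mitochondrial tryptophanyl-tRNA synthetase, and K03B4.1, a seryl-tRNA synthetase, were unlisted in the pooled list.

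**Figure D4:**
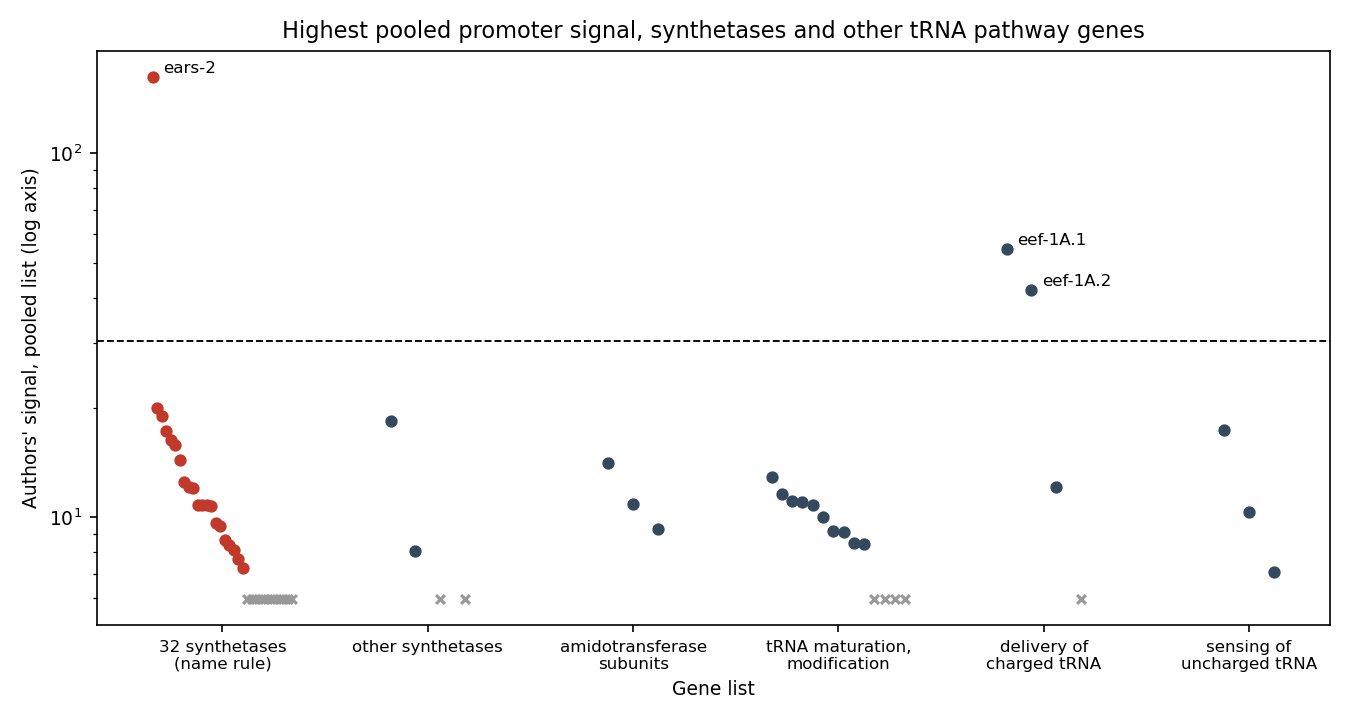
Highest pooled promoter signal (log axis) of the 32 synthetase genes and of other genes of tRNA biology, 1 point a gene, with crosses for genes unlisted in the pooled list. The dashed line is the lowest signal of the thresholded list, 30.4. Above it lie ears-2 with 162, eef-1A.1 with 54.5 and eef-1A.2 with 42.1.

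The nuclear tRNA genes were described by another measure, which is not comparable with the promoter windows. Of the 606 nuclear tRNA genes of RefSeq with a standard amino acid, 133 (21.9%) had a thresholded summit within 200 bp, in every amino acid family, between 1 of 12 for tryptophan and 9 of 27 for aspartate. The nuclear genes for glutamate tRNA had 10 of 41, and those for glutamine tRNA 4 of 27. The synthetase genes lie on the 5 autosomes, 9 on I, 5 on II, 6 on III, 8 on IV and 4 on V, with none on the X.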

How the data were processed

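The authors deposited ranked peak lists on ce11, and the lists of each biological replicate merge its 2 technical libraries and share 1 control, per the deposited notes. The signal of each region and the −log10 q-value are as the authors deposited them. The aligner, peak caller, their versions and the threshold of the irreproducible discovery rate were not given in the sources used here. Lists on ce10 were not used here. Signals of different lists are given side by side without scaling. Genes and 5' ends came from Ensembl release 115 of WBcel235, product names and sequence from RefSeq of the same assembly, which is ce11.

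A summit is the region start plus the deposited offset, counted from 1. Members and lists were chosen with earlier results of these data known. Named are all members, the genes that share their sites (1 is not reported here) and up to 4 genes of each tRNA list, plus genes marked as chosen after values were seen. With 1 group and 2 biological replicates no test was run. The assignment of summits to genes was tested on simulated data. Python 3.11.15, pandas 2.3.3 and NumPy 2.4.6 were used. Alternatives were other windows, nearest 5' ends, stricter lists, other summit distances and each replicate alone.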

Additional observations from a re-analysis of the deposited data

How the results depend on the processing

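ears-2 was the member with a promoter peak in the thresholded list under both other windows (500 bp upstream to 100 bp downstream, and 2000 bp upstream), by the nearest 5' end, by any overlapping base and in the 331 strongest of the nuclear peaks. With 1 replicate left out, the 663 highest nuclear regions of the other replicate stood in for the thresholded list, which needs both replicates. The count was then between 1 and 2, the second being aars-1 without replicate 1. The 21 members with a pooled region were 16 to 22 under other windows, overlap and the nearest 5' end, 15 to 19 with 1 replicate left out, and 7 in the 5000 highest regions. For other windows, overlap and the nearest 5' end no share of all genes is given. The counts of 16 to 22 thus do not show how members compare with all genes there. Sites in both replicates were 2 within 50 bp and 9 within 200 bp, against 4, with no share of all genes at 50 or 200 bp. Split by RefSeq product, mitochondrial and cytosolic members with a region were 4 and 7, because 18 members have no compartment there. By the nearest 5' end, the tRNA lists had 1 thresholded gene in place of 2. No paired analysis was possible because there is 1 group. The depth is unknown, so no precision can be given for a single signal.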
